A study of Mus musculus with 11 samples.

Results

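The microbial sensors *Nod1* and *Nod2*, their adaptor kinase *Ripk2*, the NF-κB subunit genes *Nfkb1*, *Nfkb2*, *Rela* and *Relb*, and the NF-κB feedback genes *Nfkbia*, *Tnfaip3* and *Birc3* were examined in sorted liver sinusoidal endothelial cells (ECs). These 10 genes were taken by gene name from a table of raw read counts that lists 29307 genes, and all 10 had enough counts for a test. The ECs came from male C57BL/6J mice aged 10 to 12 weeks. 5 mice were germ-free (GF), kept in sterile isolators, and 6 were conventionally raised (CONV-R) with a gut microbiota; each mouse gave 1 library. Liver cells were enriched for CD146 on magnetic columns and sorted as CD31+ CD105+ CD146+ cells, and RNA was amplified from 20 ng before sequencing. The authors reported fewer sorted ECs and less RNA from GF than from CONV-R livers, and a low viability of the sorted cells. Absence of microbes, housing in isolators and these differences in cell and RNA yield cannot be told apart in this design.

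NOD1 and NOD2 are cytosolic receptors for fragments of bacterial peptidoglycan. Once bound they recruit the kinase RIPK2, which leads to activation of the IKK complex, release of NF-κB dimers from IκB proteins and transcription of inflammatory genes. Among those target genes are brakes on the same pathway: *Nfkbia* encodes IκBα, which holds NF-κB in the cytoplasm, and *Tnfaip3* encodes a ubiquitin-editing enzyme that ends signalling from receptor complexes. Liver sinusoidal ECs line the vessels that receive portal blood from the gut, and so meet gut-derived microbial products early.

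Expression is given as CPM, read counts brought to a common library size by TMM normalization. Total counts ran from 7922855 to 14669352 per CONV-R library and from 7242717 to 16164588 per GF library. Log2FC values compare GF with CONV-R in edgeR's quasi-likelihood test, and adjusted p denotes its p value after Benjamini-Hochberg correction over the 12905 genes tested. All 14 LSEC markers passed the filter on low counts, and their summed level ranged from 36145 to 51645 CPM in GF and from 37431 to 45392 CPM in CONV-R libraries (two-sided exact permutation test, p = 0.247; 0.494 after adjustment over 6 marker lists). None of the 14 was called, while 7 of them had an unadjusted p under 0.05 in edgeR's test, all with higher estimates in GF, beside 23% of all tested genes in either direction and 12.5% as higher; their median Log2FC was 0.33. The summed level of 11 Kupffer cell markers was far lower, with 207.8 to 955 CPM in GF and 90.1 to 236 CPM in CONV-R libraries (two-sided exact permutation test, p = 0.00866; 0.0519 adjusted). Of these markers, 7 were called higher in GF libraries, namely *Clec4f*, *Vsig4*, *Adgre1*, *Csf1r*, *Timd4*, *C1qb* and *C1qc*, and none had a mean of 0 in either group. The difference of the Kupffer cell means was 266.6 CPM, and 130.2 CPM without GF replicate 6. The summed level of 8 neutrophil and monocyte markers was 42.9 to 225 CPM in GF and 18.1 to 57.9 CPM in CONV-R libraries (exact permutation test, p = 0.0195; 0.0584 adjusted), with 5 of the 8 under a mean of 1 CPM. *Lyz2*, a lysozyme gene of myeloid cells and the only one of the 8 called (higher in GF), made up most of this sum, with means of 95.9 CPM in GF and 35.9 CPM in CONV-R libraries. Of the other 7, *Csf3r* (1.52 CPM in GF against 0.930 CPM in CONV-R) and *Ly6c2* (0.342 against 0.0802 CPM) had higher means in GF libraries, and *S100a8* (0.0839 against 0.463 CPM), *S100a9* (0.201 against 0.996 CPM), *Ccr2* (1.23 against 2.32 CPM), *Retnlg* and *Mpo* had lower ones; *Csf3r* and *Ccr2* did not pass the test, and the others had too few counts for it. The lymphocyte and NK, hepatocyte, and stellate and mesenchymal lists had adjusted p values of 0.790, 0.597 and 0.790 in the same exact permutation test. CONV-R replicate 3 stood apart in several genes described here, and the results it moved most among the 10 genes are given with and without it.

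The question of the comparison was which transcripts of liver sinusoidal ECs differ with the presence of a microbiota. Of the 10 genes, 1 passed the adjusted threshold of 0.05, *Tnfaip3*, which was lower in GF ECs; 7.48% of all tested genes passed in either direction, 2.67% as lower and 4.8% as higher in GF. DESeq2 also called *Tnfaip3* alone among the 10, and called 9.93% of the genes it tested. The median Log2FC over the 10 genes was -0.00023, beside -0.0061 over all tested genes, with 5 genes above and 5 below 0. At an unadjusted p under 0.05, 2 of the 10 genes were past the threshold, *Tnfaip3* as lower and *Rela* as higher, beside 23% of all tested genes. *Tnfaip3* was also the only gene of the 10 whose CPM ranges did not overlap between the groups, which held for 5.59% of tested genes.

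**Figure D1:**
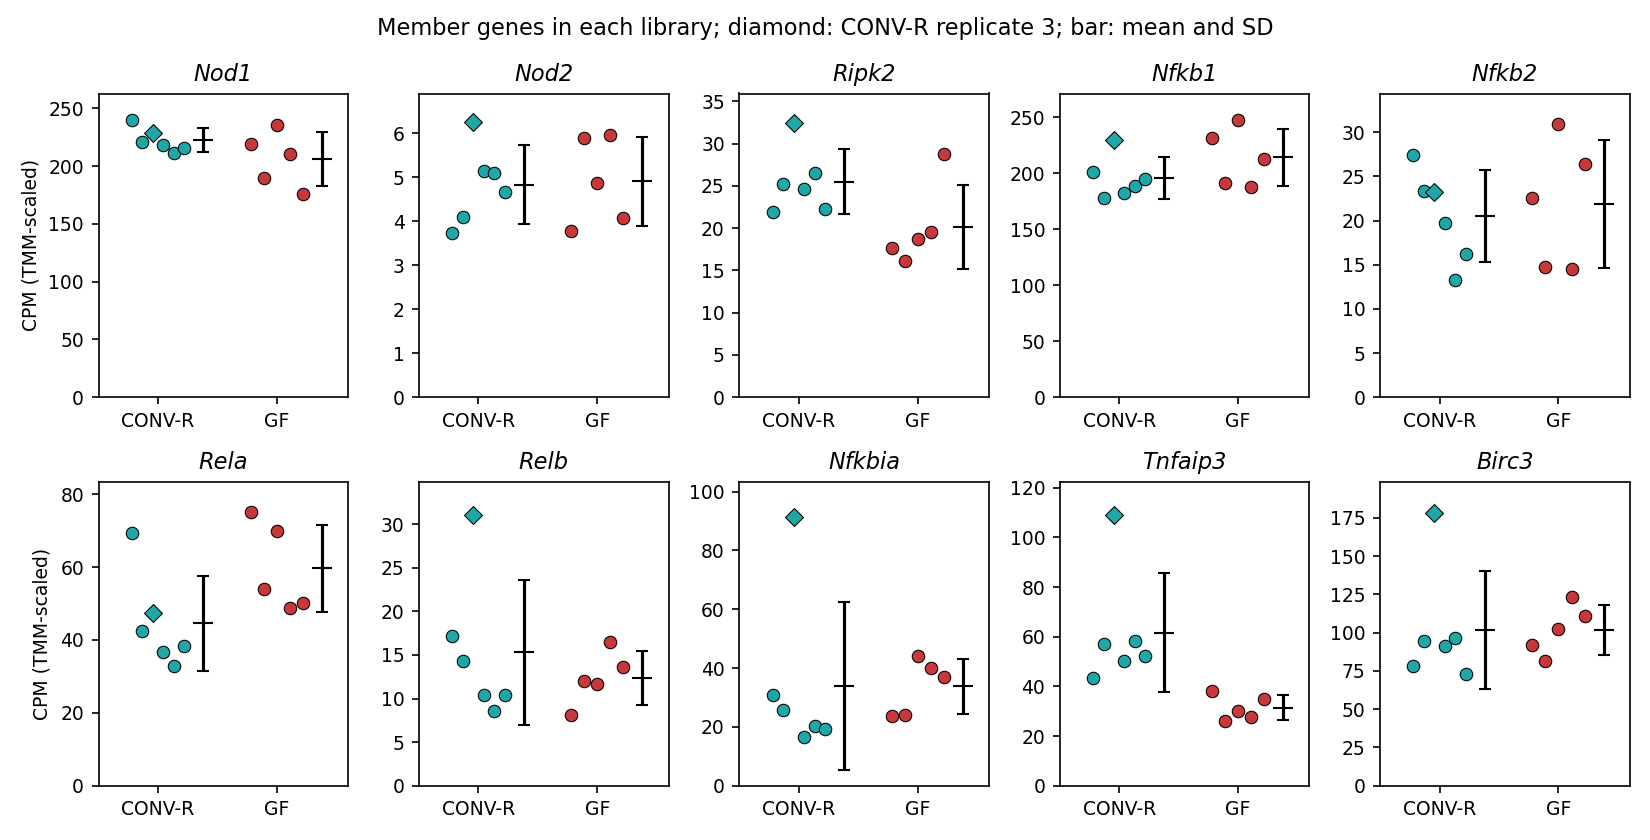
CPM (TMM-scaled, linear axes from 0) of the 10 genes in each of the 6 CONV-R and 5 GF libraries; points are libraries, the diamond is CONV-R replicate 3, and the bars give the mean and SD. *Tnfaip3* lies between 26.2 and 38 CPM in GF and at 43.2 CPM or above in CONV-R libraries, while the groups overlap in the other 9 genes.

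*Tnfaip3* (ENSMUSG00000019850) lies on the minus strand of chromosome 10, from 19000910 to 19015657 in GRCm38. It was measured at 43.2, 56.9, 109, 50.1, 58.4 and 52.1 CPM in CONV-R replicates 1 to 6, and at 38, 26.2, 30.2, 27.6 and 35.0 CPM in GF replicates 1, 2, 4, 5 and 6. Every GF library was below every CONV-R library, and CONV-R replicate 3 was far above the other 5. The means were 31.4 ± 4.99 CPM in GF (SD, n = 5) and 61.6 ± 23.9 CPM in CONV-R ECs (SD, n = 6). *Tnfaip3* was 1.96-fold lower in GF ECs (Log2FC -0.97, SE 0.21, 95% confidence interval -1.40 to -0.53; edgeR with Benjamini-Hochberg correction, adjusted p = 0.00837). Without CONV-R replicate 3 the Log2FC was -0.73, with an adjusted p of 0.00342 in the same edgeR test. In these sorted cell populations, fewer cells that express a gene and less RNA of it per cell cannot be told apart. Kupffer cell markers moved the opposite way, and their part in the *Tnfaip3* result was not tested; GF replicate 6, with the highest Kupffer cell marker sum, had 35.0 CPM of *Tnfaip3*, and CONV-R replicate 3, with 109 CPM of *Tnfaip3*, had a Kupffer cell marker sum of 96.3 CPM, near the low end.

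The promoters of *Tnfaip3* and *Nfkbia* are shown because these genes carry the group difference and the strongest deviation of a single library, and because NF-κB binds motifs in the promoters of its own inhibitors. Windows of 250 bases before annotated starts came from RefSeq (GRCm38.p6), which gave 11 windows for 7 of the 10 genes and none for *Ripk2*, *Nfkb1* or *Relb*. The motif GGNNTTTCC, part of the sequence that RelA-containing dimers prefer, was searched on both strands. It was in 5 of these 11 windows, in *Nod2*, *Nfkb2*, *Nfkbia* and *Tnfaip3*, and in 4.93% of 32851 windows of this length. The matching *Nfkb2* windows lie largely in exons of that gene, with 250 and 234 of their 250 bases. Windows 2 and 3 of *Nfkb2* overlap, so the 11 are not all separate stretches. *Nfkbia* and *Tnfaip3* each had 2 matches in 1 window, which 0.198% of all windows had. The sequences read 5′ to 3′ on the strand of the gene, and capitals mark the matches. In both genes the match farther from the start lies on the strand of the gene and the nearer one on the opposite strand. The first sequence is a stretch of 30 bases at chr10:19015411-19015440, with matches 24 to 16 and 12 to 4 bases before the first of 2 RefSeq starts of *Tnfaip3*. That start lies inside the GENCODE gene, whose exons cover 110 bases of the 250-base window and 0 of the 30 shown. The second is the whole window of *Nfkbia* at chr12:55492648-55492897, with matches 178 to 170 and 29 to 21 bases before the start.
Tnfaip3: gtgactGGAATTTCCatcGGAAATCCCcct
Nfkbia: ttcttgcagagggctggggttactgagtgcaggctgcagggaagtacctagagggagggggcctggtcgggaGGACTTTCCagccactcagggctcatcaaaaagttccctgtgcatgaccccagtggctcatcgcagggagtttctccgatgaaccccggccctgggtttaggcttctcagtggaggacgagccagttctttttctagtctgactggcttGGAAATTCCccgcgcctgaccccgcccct
A match of letters is a description of the window and does not show binding in these cells.

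By their profile over the 11 libraries, the genes most like *Tnfaip3* were *Klhl6*, *Acsl3* and *Lrrc40*, with mean absolute differences of standardized log2 CPM of 0.190, 0.218 and 0.245. *Acsl3* encodes an enzyme that activates long-chain fatty acids. Their Log2FC values, with all libraries, were -0.69, -0.66 and -0.40. These genes were chosen for the likeness over the same libraries, so their direction and a high value in CONV-R replicate 3 follow from the choice and are given with no test. All of them were highest in CONV-R replicate 3 among the CONV-R libraries, at 234.1 CPM for *Klhl6*, 67.3 CPM for *Acsl3* and 36.6 CPM for *Lrrc40*, against at most 158.3, 39.6 and 28.5 CPM in the other 5.

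*Nfkbia* (ENSMUSG00000021025, minus strand of chromosome 12, 55489410 to 55492647) had 30.9, 25.8, 91.3, 16.6, 20.4 and 19.2 CPM in CONV-R replicates 1 to 6 and 23.8, 24.1, 44.1, 39.9 and 36.9 CPM in GF replicates 1, 2, 4, 5 and 6. The CONV-R group held both the lowest values and, in replicate 3, the highest, so that the groups overlapped. With all libraries the Log2FC was 0.00 (SE 0.37, 95% confidence interval -0.77 to 0.77; edgeR, adjusted p = 0.997). Without CONV-R replicate 3 it was 0.58 (SE 0.21; edgeR's quasi-likelihood test, adjusted p = 0.103), and 3 of the 5 GF libraries were then above every remaining CONV-R library. *Nfkbia* and *Tnfaip3*, both inhibitors induced by NF-κB, thus had estimates of opposite sign without this library, of which only that of *Tnfaip3* passed the test.

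*Birc3* (ENSMUSG00000032000, minus strand of chromosome 9, 7848699 to 7873186) encodes an inhibitor of apoptosis that acts as a ubiquitin ligase in NOD and TNF receptor complexes. Its CONV-R values were 77.9, 94.2, 178, 91.6, 96.4 and 73.3 CPM for replicates 1 to 6, and its GF values were 91.7, 81.5, 102, 123 and 111 CPM for replicates 1, 2, 4, 5 and 6. Replicate 3 of the CONV-R group was again the highest, and the groups overlapped. The Log2FC was 0.00 (SE 0.19, 95% confidence interval -0.41 to 0.41; edgeR, adjusted p = 0.996), and 0.23 without that library (edgeR, adjusted p = 0.286).

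**Figure D2:**
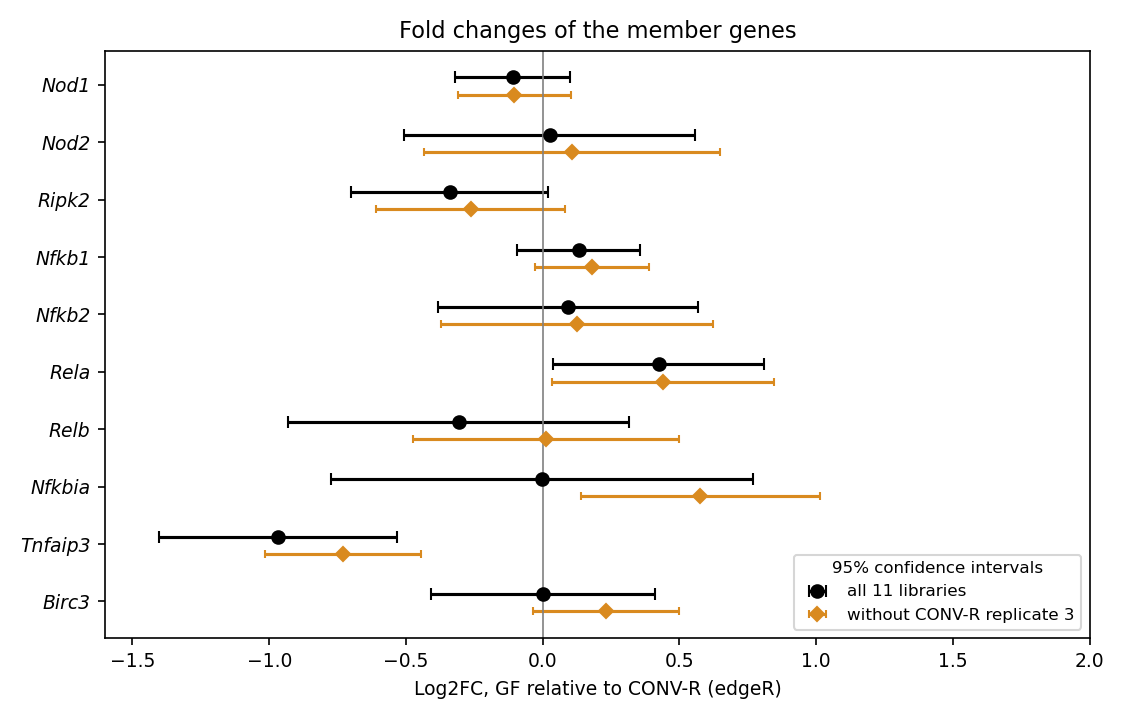
Log2FC of the 10 genes, GF relative to CONV-R, from edgeR's quasi-likelihood test, with 95% confidence intervals; circles use all 11 libraries and diamonds leave out CONV-R replicate 3. *Nfkbia* moves from 0.00 to 0.58 and *Relb* from -0.31 to 0.01, while *Tnfaip3* stays below 0 with -0.97 and -0.73.

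The sensors gave no difference past the threshold. *Nod1* (ENSMUSG00000038058, minus strand of chromosome 6, 54923949 to 54972612), the receptor for peptidoglycan that carries diaminopimelic acid, had 240.2, 221, 229, 218, 212 and 216 CPM in CONV-R replicates 1 to 6 and 219, 189, 235, 211 and 176 CPM in GF replicates 1, 2, 4, 5 and 6. Its CONV-R libraries differed little, with an SD of 0.066 on the log2 CPM scale against a median of 0.299 over all tested genes. The Log2FC was -0.11 (SE 0.10; edgeR, adjusted p = 0.547), and the 95% confidence interval of -0.32 to 0.10 leaves out a change of 2-fold in either direction. *Nod2* (ENSMUSG00000055994, plus strand of chromosome 8, 88647315 to 88688474), the receptor for muramyl dipeptide, was scarce, with 30 to 64 counts per library. It had 3.72, 4.10, 6.26, 5.14, 5.09 and 4.66 CPM in CONV-R replicates 1 to 6 and 3.77, 5.89, 4.86, 5.95 and 4.07 CPM in GF replicates 1, 2, 4, 5 and 6, and the groups overlapped over nearly their whole range. Its Log2FC was 0.02 (SE 0.25, 95% confidence interval -0.51 to 0.56; edgeR, adjusted p = 0.972).

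*Ripk2* (ENSMUSG00000041135, minus strand of chromosome 4, 16122733 to 16163647), the kinase downstream of both sensors, had 21.9, 25.3, 32.4, 24.6, 26.5 and 22.3 CPM in CONV-R replicates 1 to 6 and 17.6, 16.1, 18.8, 19.6 and 28.8 CPM in GF replicates 1, 2, 4, 5 and 6. Of the 5 GF libraries, 4 were below every CONV-R library, and GF replicate 6 was above all but 1 of them. The Log2FC was -0.34 (SE 0.17, 95% confidence interval -0.70 to 0.02), which did not pass the test (edgeR with Benjamini-Hochberg correction, adjusted p = 0.242). Without GF replicate 6 it was -0.50 with an adjusted p of 0.0832 in the same edgeR test. GF replicate 6 also had the highest sums of Kupffer cell markers, at 955 CPM, and of neutrophil and monocyte markers, at 225 CPM; their part in its *Ripk2* value was not tested.

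Among the NF-κB subunits, *Rela* (ENSMUSG00000024927, plus strand of chromosome 19, 5637483 to 5648130) had the largest estimate with all 11 libraries. It encodes the transactivating subunit of the canonical dimer. *Rela* was measured at 69.3, 42.3, 47.4, 36.8, 32.9 and 38.3 CPM in CONV-R replicates 1 to 6 and at 75.0, 54.1, 70.0, 48.8 and 50.2 CPM in GF replicates 1, 2, 4, 5 and 6. Except for CONV-R replicate 1, all CONV-R libraries were below every GF library. The Log2FC was 0.42 (SE 0.18, 95% confidence interval 0.04 to 0.81), which did not pass the edgeR test after correction (unadjusted p = 0.0328, adjusted p = 0.173). Without CONV-R replicate 1 it was 0.60 with an adjusted p of 0.0258 in the same edgeR test, so 2 rather than 1 of the 10 genes passed when that library was left out.

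*Nfkb1* (ENSMUSG00000028163, minus strand of chromosome 3, 135584655 to 135691547) encodes the precursor of the DNA-binding partner of RelA. It had 201, 177, 229, 182, 188 and 195 CPM in CONV-R replicates 1 to 6 and 231, 192, 247, 188 and 213 CPM in GF replicates 1, 2, 4, 5 and 6, and the groups overlapped (Log2FC 0.13, 95% confidence interval -0.09 to 0.36; edgeR, adjusted p = 0.497). *Nfkb2* (ENSMUSG00000025225, plus strand of chromosome 19, 46304320 to 46312385) encodes the precursor of the non-canonical pathway. Its values spread widely in both groups, with 27.5, 23.4, 23.2, 19.7, 13.2 and 16.2 CPM in CONV-R replicates 1 to 6 and 22.5, 14.8, 30.9, 14.5 and 26.4 CPM in GF replicates 1, 2, 4, 5 and 6 (Log2FC 0.09, 95% confidence interval -0.38 to 0.57; edgeR, adjusted p = 0.856). *Relb* (ENSMUSG00000002983, minus strand of chromosome 7, 19606217 to 19629438) encodes the usual partner of the *Nfkb2* product. It had 17.1, 14.3, 31.1, 10.4, 8.56 and 10.4 CPM in CONV-R replicates 1 to 6 and 8.06, 12, 11.7, 16.5 and 13.6 CPM in GF replicates 1, 2, 4, 5 and 6. All GF values of *Relb* lay below CONV-R replicate 3 and within or just under the range of the other CONV-R libraries. The Log2FC was -0.31 (95% confidence interval -0.93 to 0.32; edgeR, adjusted p = 0.583) with all libraries and 0.01 without CONV-R replicate 3.

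Within the CONV-R group, 1 library had high levels of several of the 10 genes. CONV-R replicate 3 exceeded the median of the other 5 CONV-R libraries 4.49-fold in *Nfkbia*, 2.97-fold in *Relb*, 2.10-fold in *Tnfaip3* and 1.94-fold in *Birc3*. The ratios of the sensors, *Ripk2* and the other subunits were 1.05 for *Nod1*, 1.34 for *Nod2*, 1.32 for *Ripk2*, 1.22 for *Nfkb1*, 1.18 for *Nfkb2* and 1.24 for *Rela*. A ratio over 2 was found in 3 of the 10 genes and in 6.68% of tested genes, and this library was the highest of all 11 in 6 of the 10 genes, beside 19.9% of tested genes. These are descriptions of 1 library, which no replicate checks. Its total of 7922855 counts was the lowest of the CONV-R group, and its sum of LSEC markers, at 42661 CPM, lay within the range of the other libraries. Its sum of neutrophil and monocyte markers, at 56.1 CPM, which is mostly *Lyz2* at 45.3 CPM, lay within that range too. This library was the highest of the 11 in *S100a8*, *S100a9*, *Ccr2* and *Retnlg*, and not in *Csf3r*, *Ly6c2*, *Lyz2* and *Mpo*. *S100a8*, *S100a9* and *Ccr2* were at 1.10, 2.09 and 6.02 CPM there, from 9, 17 and 49 counts. In the other CONV-R libraries they reached at most 0.853, 1.47 and 2.39 CPM. *Retnlg* was at 0.491 CPM, and *Csf3r* at 0.887 times the median of the other CONV-R libraries. The part of these markers in this library's values of the 10 genes was not tested. Among 18 tested NF-κB target genes, a ratio over 2 was found in 8, which were chosen here by that ratio. They were the chemokine genes *Ccl2*, *Ccl5*, *Cxcl1* and *Cxcl10* and *Il1b*, *Cd83*, *Csf1* and *Plau*. *Ccl2*, *Ccl5*, *Cxcl1*, *Il1b* and *Cd83* were scarce, with medians of 0.478 to 2.48 CPM in the other CONV-R libraries. *Ccl5* was higher in another CONV-R library, at 1.55 CPM. In 1 of the 18, *Nos2*, this library was more than 2-fold lower, with a ratio of 0.415. A ratio over 2 was also found in 1 of 14 tested genes of the NOD axis, the peptide transporter gene *Slc15a2*. Its other CONV-R libraries spanned 4.74 to 156.5 CPM, so another library was higher. *Erbin*, 1 of the same 14, was more than 2-fold lower, with a ratio of 0.462. A ratio over 2 was found in 0 of 18 genes of the IKK and NF-κB machinery and in 0 of 16 tested other NF-κB inhibitors. Of these inhibitors, *Pdlim2* was more than 2-fold lower, with a ratio of 0.109.

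**Figure D3:**
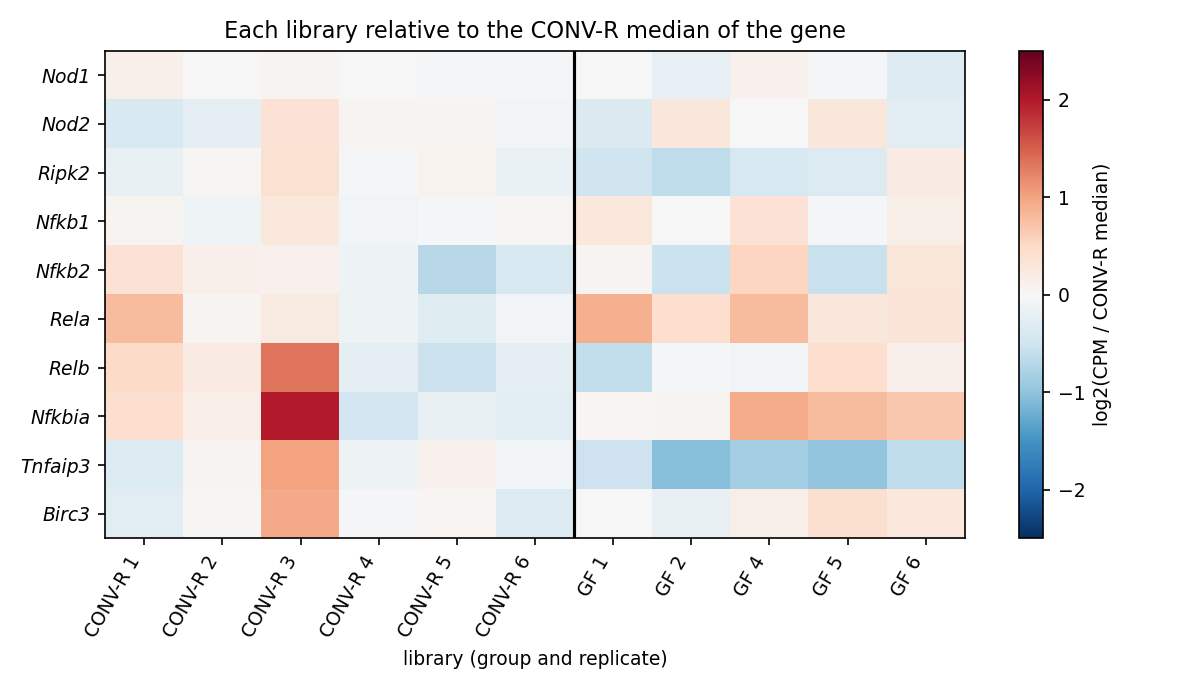
Log2 ratio of the CPM of each library to the CONV-R median of the gene, for the 10 genes (rows) in the 11 libraries (columns, by group and replicate). CONV-R replicate 3 is high in *Relb*, *Nfkbia*, *Tnfaip3* and *Birc3*, and all GF libraries are below the CONV-R median in *Tnfaip3*.

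Levels were compared between genes as CPM per kilobase of annotated exon. *Nod1* was the highest of the 10 by mean, with 43.8 ± 2.03 in CONV-R (SD, n = 6) and 40.6 ± 4.67 in GF ECs (SD, n = 5). *Nod2* was the lowest, with 0.963 ± 0.179 in CONV-R and 0.979 ± 0.201 in GF ECs, so that of the paired sensors *Nod1* was by far the more abundant transcript. *Nfkbia*, *Birc3*, *Nfkb1* and *Rela* formed the next tier, with CONV-R means of 21.1, 20.3, 16.2 and 14.5 and GF means of 21, 20.4, 17.8 and 19.4 CPM per kilobase. The CONV-R mean of *Nfkbia* includes the high value of CONV-R replicate 3. By CONV-R median these genes were at 14.3, 18.5, 15.9 and 13.1, so *Nfkbia* came after *Birc3* and *Nfkb1*. *Ripk2*, *Tnfaip3*, *Nfkb2* and *Relb* followed in CONV-R ECs with means of 9.05, 8.53, 4.48 and 3.94 CPM per kilobase. In GF ECs *Tnfaip3*, at 4.35 ± 0.690 CPM per kilobase, came after *Nfkb2* at 4.77 ± 1.57, and their ranges overlapped. In the CONV-R order, every gene overlapped the next lower one in range except *Relb* and *Nod2*; *Nod1* overlapped *Nfkbia* through CONV-R replicate 3 alone, at 56.7 CPM per kilobase of *Nfkbia*. In the GF order, ranges did not overlap between *Nod1* and *Nfkbia*, between *Nfkb1* and *Ripk2*, and between *Relb* and *Nod2*.

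**Figure D4:**
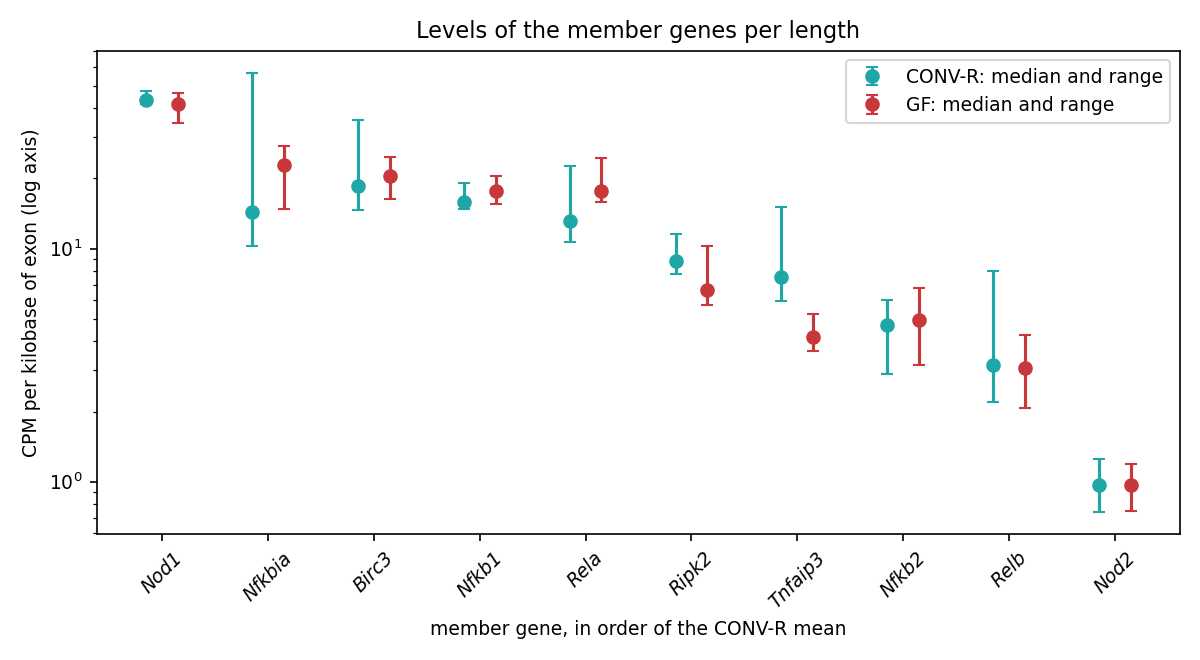
CPM per kilobase of exon (log axis) of the 10 genes in order of the CONV-R mean; points are medians and bars the full range over 6 CONV-R and 5 GF libraries. *Nod1* is the highest and *Nod2* the lowest in both groups.

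The spread between animals ranged widely over the 10 genes. On the log2 CPM scale, the CONV-R SD was 0.13 for *Nfkb1* and 0.20 for *Ripk2*, and it rose to 0.46 for *Tnfaip3* and *Birc3*, 0.67 for *Relb* and 0.89 for *Nfkbia*. In GF ECs the SDs were 0.23 for *Tnfaip3* and *Birc3*, 0.37 for *Relb*, 0.42 for *Nfkbia* and 0.49 for *Nfkb2*, beside a median of 0.337 over all tested genes. The CONV-R values include CONV-R replicate 3, with 109 CPM of *Tnfaip3* and 91.3 CPM of *Nfkbia*. The other CONV-R libraries spanned 43.2 to 58.4 and 16.6 to 30.9 CPM, so these SDs rest largely on 1 library. The difference in spread was not tested.

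The wider pathway was examined by gene lists. Of 18 further genes of the NOD axis (peptidoglycan transport, recognition and signalling partners), 14 were tested; none passed the adjusted threshold in edgeR's quasi-likelihood test, none had an unadjusted p under 0.05, none passed in DESeq2, and the median Log2FC was 0.03. Of 18 tested genes of the IKK and NF-κB machinery, 0 passed the adjusted threshold with edgeR and 2 with DESeq2 (*Bcl3* and *Tab1*), and the median Log2FC was -0.09. At an unadjusted p under 0.05, 4 of these 18 were past it, a share near the 23% of all tested genes. They were the ubiquitin ligase gene *Traf6* with a Log2FC of 0.29, the kinase adaptor gene *Tab1* with -1.08, and the genes of the nuclear IκB proteins *Nfkbiz* and *Bcl3* with -0.47 and -0.68; their edgeR adjusted p values were 0.151, 0.0993, 0.202 and 0.0886.

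Of 17 other inhibitors of NF-κB signalling, 16 were tested. None passed the adjusted threshold with edgeR, 1 passed with DESeq2 (*Nlrc3*), and the median Log2FC was -0.13. At an unadjusted p under 0.05 there were 4, all with lower estimates in GF ECs, a share near the 23% of all tested genes past that p in either direction; 10.5% of all tested genes were past it as lower. As background, *Tnip1* and *Tnip2* encode proteins that bind the *Tnfaip3* product, and *Rnf11* a ubiquitin ligase. The Log2FC values of *Tnip1*, *Tnip2* and *Rnf11* were -0.52 (SE 0.18), -0.38 (SE 0.15) and -0.35 (SE 0.15), with edgeR adjusted p values of 0.0968, 0.134 and 0.169. The fourth, *Nlrc3*, which encodes an inhibitory NOD-like receptor, had a Log2FC of -0.54 (SE 0.19; edgeR, adjusted p = 0.0894). *Tnfaip3* was thus the only one called in edgeR's test among the inhibitors tested here, *Nfkbia*, *Tnfaip3* and these 16 genes.

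Of 27 NF-κB target genes, 18 were tested and 3 passed the adjusted threshold, beside 7.48% of all tested genes, with a median Log2FC of -0.22. *Vcam1*, the gene of a leukocyte adhesion molecule, was higher in GF ECs, with 282.6 ± 36 CPM (SD, n = 5) against 151 ± 32.4 CPM (SD, n = 6), and its groups did not overlap (Log2FC 0.90, SE 0.14; edgeR, adjusted p = 0.000661). *Bcl2l1*, which encodes a survival factor of the BCL2 family, was also higher, with 28.8 ± 4.16 against 18.0 ± 3.48 CPM and no overlap (Log2FC 0.68, SE 0.16; edgeR, adjusted p = 0.0183). *Csf1*, the gene of the macrophage growth factor, was lower in GF ECs, with 122.7 ± 35.5 against 224.9 ± 85.6 CPM and overlapping groups (Log2FC -0.87, SE 0.23; edgeR, adjusted p = 0.0267). The *Csf1* call was lost without GF replicate 1 (edgeR, adjusted p = 0.0670) or GF replicate 2 (0.0668), with a Log2FC of -0.77 in both, and was kept without CONV-R replicate 3 (Log2FC -0.65; edgeR, adjusted p = 0.0363). The called target genes thus went in both directions. The part of the higher Kupffer cell markers in these values was not tested.

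*Tnf* and *Ccl20* had too few counts for the primary test and were singled out after their values were seen. *Tnf*, an inducer of NF-κB and itself a target, had 33, 13, 21, 8, 8 and 9 counts in CONV-R replicates 1 to 6 and 0, 4, 1, 2 and 0 counts in GF replicates 1, 2, 4, 5 and 6. In CPM every GF library was below every CONV-R library, at most 0.386 against at least 0.643 CPM. Without the filter on low counts, edgeR's quasi-likelihood test gave a Log2FC of -3.13 (SE 0.86, adjusted p = 0.0197), and DESeq2 gave an adjusted p of 0.00472. *Ccl20*, a chemokine gene, had 33 counts over the CONV-R libraries, 23 of them in replicate 3, and 0 over the GF libraries, so its difference rested mainly on that library.

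**Figure D5:**
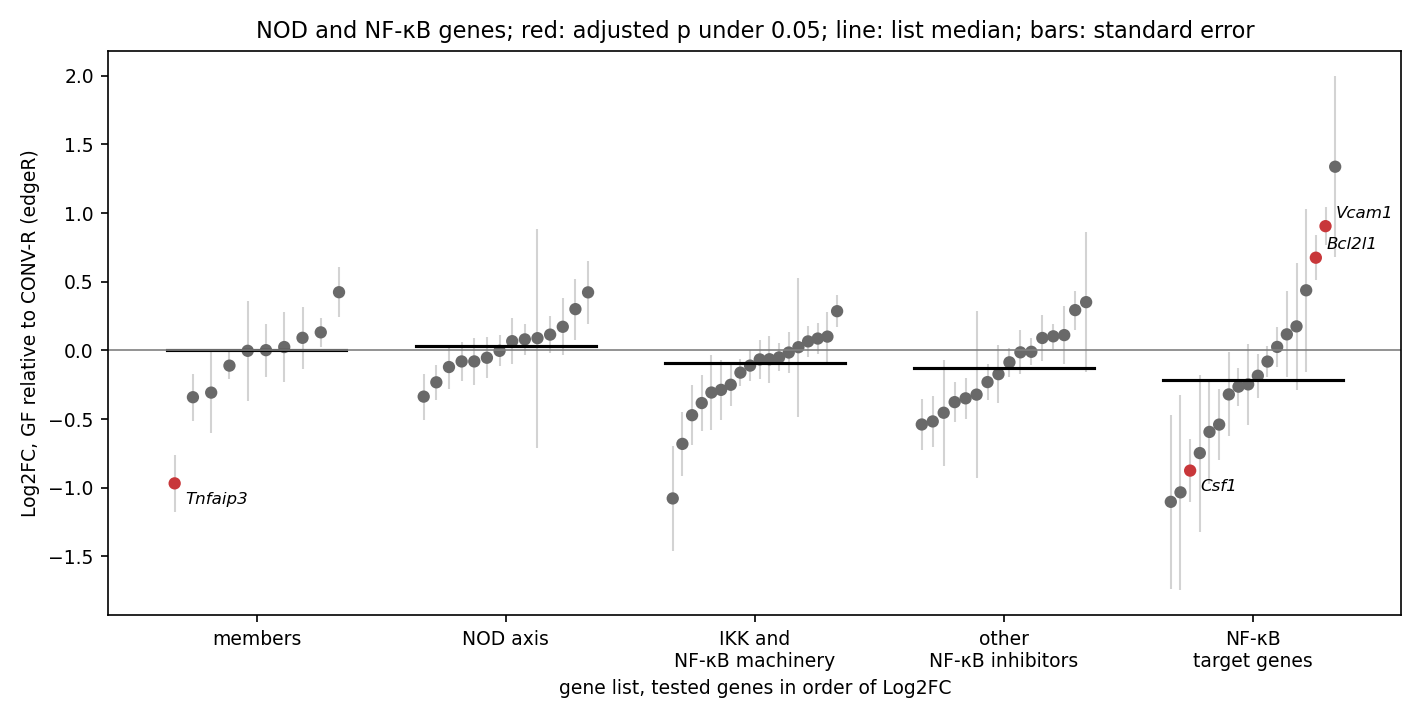
Log2FC (edgeR, GF relative to CONV-R) of every tested gene in the 10 member genes and the 4 pathway lists, in order of size within each list; bars are standard errors, black lines list medians, and red points genes with an adjusted p under 0.05. The red points are *Tnfaip3* (-0.97), *Csf1* (-0.87), *Bcl2l1* (0.68) and *Vcam1* (0.90).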

How the data were processed

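RNA of sorted liver ECs was sequenced as 50-base single-end reads from 11 mice, 1 library per mouse. The authors trimmed reads with Trim Galore 0.4.4, mapped them to GRCm38 with STAR 2.5.2b and deposited raw counts per gene made with featureCounts 1.5.2; they left out 1 further GF library for its low number of mapped reads. They also deposited values normalized with DESeq2 on a log2 scale, used here in 1 alternative. The annotation release and the strand setting of the counting are not given in the sources used here, so reads shared with overlapping genes cannot be told apart.

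Samples were grouped by their labels. Counts were analysed in R 4.3.3 with edgeR 4.0.16 (filterByExpr, TMM, quasi-likelihood test, no covariate, Benjamini-Hochberg adjustment over 12905 genes, threshold 0.05); the method was tested on simulated data. Alternatives were DESeq2 1.42.0 size factors and test, voom of limma 3.58.1, robust dispersion, no filter on low counts, a minimum of 10 counts per library, the normalized values, a replicate block and each library left out in turn. Log2 CPM used a prior count of 2. Marker sums were compared by two-sided exact permutation tests over 462 splits, whose smallest p is 0.00216. Positions and exon lengths came from GENCODE M21, to which 29081 of 29307 genes matched by identifier.

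The 10 genes and the lists were chosen with earlier results of these data known. Named genes were all 10, list genes past the adjusted threshold or an unadjusted p of 0.05, and the 3 genes closest in profile to a called one; *Tnf*, *Ccl20*, genes named by their ratio in CONV-R replicate 3 or by a call in an alternative, and markers outside the called ones were added after their values were seen. Plots were drawn with matplotlib 3.10.9.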

Additional observations from a re-analysis of the deposited data

Results flagged for a closer look

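Some values lay so far from the rest of their group that the gap to the nearest library exceeded the critical value of Dixon's test. This held for 7 of 38 groups examined, and 4 of the 7 concern CONV-R replicate 3. The critical value is set to flag about 1 in 20 groups of independent, normally distributed values. The groups here share the same libraries and are on the CPM scale, so 7 of 38 cannot be weighed against that rate. In that library *Nfkbia* was at 91.34 CPM with the nearest CONV-R library at 30.87, *Tnfaip3* at 109.1 with the nearest at 58.39, *Birc3* at 178.0 with the nearest at 96.35, and *Csf1* at 388.2 with the nearest at 229.3. The other 3 concern GF replicate 6, with *Ripk2* at 28.75 CPM and the nearest GF library at 19.57, the summed Kupffer cell markers at 954.6 and the nearest at 368.5, and the summed neutrophil and monocyte markers at 225.0 and the nearest at 87.51. Genes that move together in 1 library are not independent flags.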

How the results depend on the processing

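*Tnfaip3* was called lower in GF ECs under all 19 alternatives, with Log2FC values from -1.05 to -0.73 and edgeR adjusted p values of 0.00342 to 0.0266 when each library was left out. Over all genes, 965 were called, 1535 with DESeq2, and 622 to 1260 with 1 library left out. DESeq2 called 2 genes of the IKK and NF-κB machinery, 1 other inhibitor and 5 target genes; without the filter, 1 other inhibitor (*Tnip1*) and 5 target genes were called. With 1 library left out, the calls ran from 1 to 2 for the 10 genes, 0 to 1 for the machinery (*Nfkbie* without GF replicate 4, *Nfkbiz* without GF replicate 5), 0 to 1 for the other inhibitors (*Nlrc3* without CONV-R replicate 1) and 2 to 3 for the targets. The direction of *Nfkbia* turned to 0.26 with voom and 0.20 with the normalized values, and that of *Birc3* to -0.0124 without the filter and -0.0029 with at least 10 counts. Leaving out 1 library gave ranges of -0.051 to 0.11 for *Nod2*, -0.0686 to 0.21 for *Nfkb2*, 0.33 to 0.60 for *Rela*, -0.44 to 0.012 for *Relb*, -0.15 to 0.58 for *Nfkbia*, -0.0807 to 0.23 for *Birc3* and -0.998 to -0.65 for *Csf1*. For marker sums (GF minus CONV-R, CPM) they were 1660 to 5535 for LSECs, 1.15 to 13.4 for hepatocytes, 130.2 to 317.0 for Kupffer cells, 27.12 to 72.64 for neutrophils and monocytes, -2.01 to 3.68 for lymphocytes and NK cells and -1.67 to 0.40 for stellate cells; scaling to raw totals gave 1385 for LSECs and -0.0519 for lymphocytes and NK cells. The Kupffer cell sum passed without CONV-R replicate 1 (exact permutation test, adjusted p = 0.0476), and the neutrophil and monocyte sum without GF replicate 1 (0.0286). The causes were not tested.

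The labels do not say whether same-numbered libraries share a day or batch. The correlation of their deviations ran from -0.0144 to 0.201 and was over 0.1 in 1 of 5 numbers. Of 5 libraries, 2 correlated best with their own number. With 5 pairs this check cannot decide whether the libraries are paired. A replicate block, which uses 10 libraries and so leaves out CONV-R replicate 3, called 1101 genes, among them 2 of the 10 genes (*Rela* with *Tnfaip3*) and 1 other inhibitor (*Rnf11*), and gave 0.57 for *Nfkbia* and 0.0224 for *Relb*. Low counts left *Tnf* and *Ccl20* out of the primary test.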
